A study of Homo sapiens with 18 samples.

Results

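The genes examined are 31 genes of cholesterol and fatty acid synthesis among the 58870 genes of the count table. They were chosen by name, for their known place in the pathways, with earlier results of these data known. The table holds 1 row for each of them. They comprise the regulators SREBF1, SREBF2, INSIG1 and SCAP, 17 enzymes that lead from acetyl-CoA units to cholesterol, the sterol carrier STARD4, and 9 enzymes that make, desaturate, elongate or activate fatty acids. Cells adjust these pathways together through the sterol regulatory element binding proteins, membrane-bound transcription factors encoded by SREBF1 and SREBF2. When membranes are short of cholesterol, SCAP escorts these factors to the Golgi, where proteases release the active part that enters the nucleus, while INSIG1 holds them back when sterols are plentiful. SREBF2 acts mainly on sterol genes and SREBF1 mainly on fatty acid genes, and in melanoma cells both routes supply membrane lipids for growth.

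The study asked what the small MAF transcription factor MAFG does to gene expression in melanoma, using RNA-seq of the human melanoma lines WM164, SKMel28 (SKMEL28 in the labels) and A375. Each line was transduced with a lentiviral vector that expresses either Myc-DDK-tagged MAFG or, as the control, GFP from the EF1α promoter, and was selected with blasticidin. All cells grew in RPMI with 5% FBS, and 3 libraries were sequenced for each of the 6 conditions, 18 in all. Nothing in the labels says that the 3 libraries came from separate cultures or transductions, so the p-values measure only the spread between these libraries.

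Library depth, the sum of counts over all genes, ranged from 20122172 to 39025042 with a median of 31061375, and at this depth the lowest count of any of the 31 genes in any library was 10. MAFG itself stood at 52.9, 52.4 and 45.0 CPM (counts scaled to the TMM-normalized library size within the line) in the WM164 MAFG libraries and at 24.2, 27.1 and 21.7 CPM in the GFP libraries. In SKMel28 cells it stood at 37.2, 34.2 and 35.7 CPM with MAFG and at 25.1, 24.7 and 19.3 CPM with GFP. In A375 cells it stood at 60.3, 53.8 and 42.8 CPM with MAFG and at 26.3, 27.3 and 36.5 CPM with GFP. The MAFG libraries lay above the GFP libraries in every line, with log2 fold changes of 1.04 (SE 0.090), 0.64 (SE 0.097) and 0.80 (SE 0.17). The quasi-likelihood test of edgeR, adjusted after Benjamini and Hochberg, gave adjusted p of 6.37e-08, 0.000128 and 0.0655. The difference in A375 thus missed the threshold there and passed it with DESeq2 (adjusted p = 0.00078). On the deposited TPM values the same difference was larger, with log2(TPM + 1) changes of 2.71, 1.85 and 2.33 in the order of lines above and a WM164 level of 24.5 ± 3.34 TPM with MAFG against 2.89 ± 0.543 TPM with GFP. The reason for this gap between counts and TPM was not tested. All 7 melanocyte lineage markers had at least 10 counts in every WM164 and SKMel28 library, while MLANA and TYR stood at 3 counts or fewer in every A375 library. The summed melanocyte markers ranged from 3622 to 3760 CPM with GFP and from 2720 to 2752 CPM with MAFG in WM164 cells, from 4154 to 4458 and from 3642 to 3795 CPM in SKMel28 cells, and from 39.4 to 46.8 and from 137 to 186 CPM in A375 cells. Single markers did not all follow the sums. The rise of the A375 sum rested on SOX10, at 7.69 to 12.8 CPM with GFP and 111 to 152 CPM with MAFG. MITF stood there at 30.1 to 33.1 CPM with GFP and 23.1 to 36.3 CPM with MAFG. S100A1 in WM164 cells (433 to 457 with GFP and 550 to 647 CPM with MAFG) and S100B in SKMel28 cells (234 to 272 and 380 to 397 CPM) went against the sum of their line. The part of these shifts in the results was not tested. The A375 MAFG replicate 1 library stood apart, with a mean chi-square per gene of 68.7 and 96.7 against its fellow replicates, which gave 15.8 between themselves. Of 3 immune markers, PTPRC and CD3E were at 3 counts or fewer in every library, so the sum of the list was in effect CD68 alone. CD68 ranged from 116 to 130 CPM with GFP and from 48.5 to 54.8 CPM with MAFG in WM164 cells. It ranged from 298 to 376 and from 216 to 221 CPM in SKMel28 cells, and from 44.9 to 61.3 and from 54.8 to 66.5 CPM in A375 cells.

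The levels of the 31 genes in GFP cells spanned a wide range in every line. On the deposited TPM scale, which corrects for transcript length and so allows a comparison between genes, FASN, the enzyme that builds palmitate, was at 217 ± 7.86 TPM in WM164, 170 ± 4.87 TPM in SKMel28 and 296 ± 22.2 TPM in A375 cells (SD, n = 3 libraries each). Together with SREBF1 (151 ± 12.7, 70.0 ± 5.15 and 137 ± 9.83 TPM) and the desaturase SCD (141 ± 11.6, 126 ± 7.99 and 113 ± 15.5 TPM), it was among the 4 highest members in each of the 3 lines. At the lower end were HSD17B7 in WM164 (1.12 ± 0.468 TPM), TM7SF2 in SKMel28 (0.740 ± 0.243 TPM) and STARD4 in A375 cells (1.39 ± 0.221 TPM). Within the sterol branch of WM164 cells, FDFT1, squalene synthase, was at 54.2 ± 4.17 TPM, while HMGCS1, at the entry of the branch, was at 4.86 ± 0.941 TPM and the kinase MVK at 1.61 ± 0.0208 TPM.

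**Figure D1:**
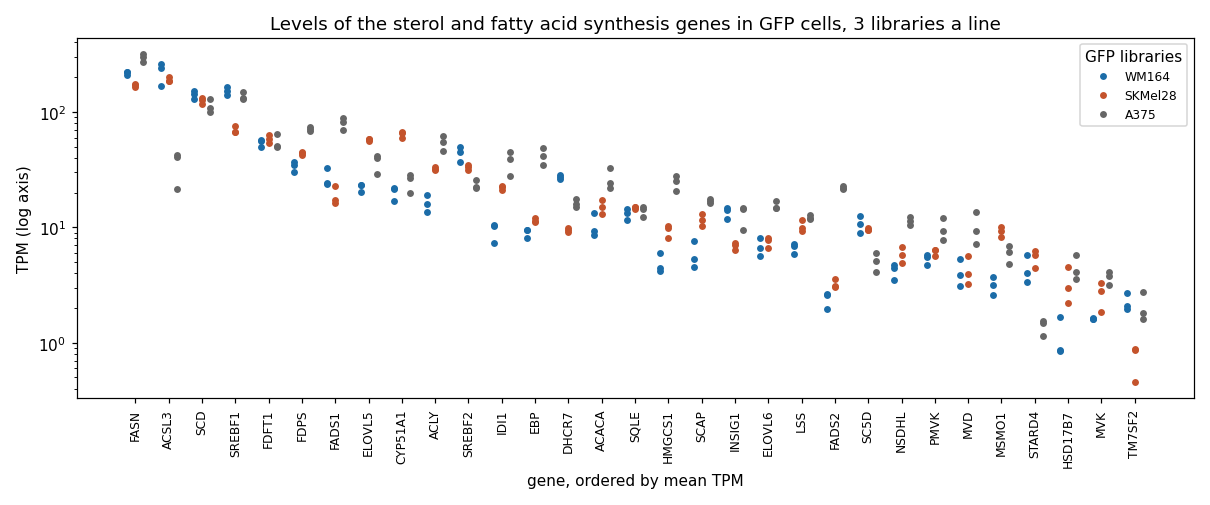
Level of each of the 31 genes in the GFP libraries of WM164 (blue), SKMel28 (red) and A375 (grey), in TPM on a log axis, with each point 1 of 3 libraries a line and the genes ordered by their mean. FASN, SCD and SREBF1 stand at the upper end in every line, while ACSL3 is high in WM164 and SKMel28 and low in A375, and FADS2 the reverse.

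The lines differed in most of these genes before MAFG was added. In a single edgeR model of all 18 libraries, the GFP levels of 20 of the 31 genes differed between WM164 and SKMel28 (64.5%, against 56.8% of all 18767 genes tested), 26 between WM164 and A375 (83.9% against 71.5%) and 27 between SKMel28 and A375 (87.1% against 68.6%). Differences above 2-fold were called for 8, 13 and 10 of the 31 genes, against 5389, 8756 and 8215 of all 18767 genes. In this paragraph CPM values are scaled over all 18 libraries. ACSL3, which activates long fatty acids by joining them to coenzyme A, was at 1074 ± 51.6 CPM in WM164, 646 ± 22.7 CPM in SKMel28 and 116 ± 15.5 CPM in A375 cells. It was 9.27 times higher in WM164 and 5.57 times higher in SKMel28 than in A375 cells (edgeR adjusted p = 1.55e-16 and 6.68e-15). FADS2, a desaturase of polyunsaturated fatty acids, ran the other way, at 8.34 ± 1.17, 8.31 ± 0.249 and 59.5 ± 6.66 CPM. A375 cells had 7.12 times the WM164 level and 7.15 times the SKMel28 level (edgeR adjusted p = 1.13e-13 and 1.23e-13). WM164 and SKMel28 lay within their spread of each other. FADS1, its neighbour on chromosome 11 and the partner enzyme of the same fatty acid route, was at 136 ± 6.05, 67.2 ± 2.31 and 311 ± 8.18 CPM. The order A375 above WM164 above SKMel28 held with no overlap of libraries for FADS1, with a 2.02-fold step between WM164 and SKMel28 and a 4.62-fold step between SKMel28 and A375 (edgeR adjusted p = 6.25e-11 and 8.42e-17). HMGCS1, which makes HMG-CoA, was lowest in WM164 (18.9 ± 1.45 CPM), intermediate in SKMel28 (30.2 ± 3.39) and highest in A375 cells (94.7 ± 4.93), with a 5.00-fold difference between WM164 and A375 (edgeR adjusted p = 7.8e-14). DHCR7, the reductase that finishes cholesterol, was instead highest in WM164 at 110 ± 4.6 CPM, against 26.5 ± 1.06 in SKMel28 and 43.9 ± 4.06 in A375 cells. The difference between WM164 and SKMel28 was 4.14-fold (edgeR adjusted p = 5.91e-13). SREBF1 was 3.15 times higher in WM164 than in SKMel28 cells (edgeR adjusted p = 2.27e-11).

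The promoters of these genes share a sequence feature that their choice by function did not use. RefSeq promoter windows on GRCh38.p14, which run from 250 bases before to 50 bases after a start of a gene, were matched for 28 of the 31 genes, all but FDFT1, SQLE and FASN. For 7 of the 28 genes several windows were listed. Only the first listed was used, so the motif counts depend on that start. The CCAAT box, searched as the letters CCAAT on both strands, was in 19 of these 28 windows (67.9%), against 35.7% of 27305 windows of all genes and 36.7% of 11014 windows of tested protein-coding genes. At least 2 CCAAT boxes, with overlapping matches counted separately, were in 13 of the 28, against 13.4% of the tested coding genes. CCAAT is the motif of the factor NF-Y, which works beside sterol regulatory element binding proteins at many of their targets. The sterol regulatory element, searched as TCACNCCAC on both strands, was in only 1 of the 28 windows, that of SREBF2, against 1.13% of tested coding windows, and the small MAF recognition letters TGCTGA was in 3 of the 28 (10.7%, against 12.9%). A GC box, GGGCGG, was in 25 of 28 (89.3%, against 68.9%). The E-box, searched as CACGTG, was in 5 of 28 (17.9%, against 10%), the windows of INSIG1, SCAP, LSS, SC5D and ELOVL5. Stretches of these promoters are shown for NSDHL and EBP, which rose with MAFG in SKMel28 cells, for MSMO1, SC5D, DHCR7 and STARD4, which rose in both WM164 and SKMel28 cells, and for SREBF2 with its sterol regulatory element. Each was cut from the upstream part of the window and is printed 5′ to 3′ on the gene's strand, with CCAAT (or ATTGG, its reverse complement) and the sterol regulatory element in capitals.
SREBF2, chr22:41832955-41833104, + strand: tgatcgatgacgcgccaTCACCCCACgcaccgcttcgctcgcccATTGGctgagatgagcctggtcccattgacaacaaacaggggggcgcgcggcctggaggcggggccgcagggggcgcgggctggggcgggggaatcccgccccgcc
NSDHL, chrX:152830817-152830966, + strand: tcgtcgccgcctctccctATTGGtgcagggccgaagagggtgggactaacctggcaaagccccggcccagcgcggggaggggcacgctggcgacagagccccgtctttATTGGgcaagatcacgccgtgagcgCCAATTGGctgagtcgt
EBP, chrX:48521656-48521805, + strand: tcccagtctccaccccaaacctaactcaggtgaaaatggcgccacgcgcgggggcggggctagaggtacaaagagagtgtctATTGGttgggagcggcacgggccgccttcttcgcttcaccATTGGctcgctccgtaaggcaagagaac
MSMO1, chr4:165327517-165327666, + strand: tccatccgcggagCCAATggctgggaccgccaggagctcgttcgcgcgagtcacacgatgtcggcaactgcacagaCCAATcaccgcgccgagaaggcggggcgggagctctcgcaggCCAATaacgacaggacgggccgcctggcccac
SC5D, chr11:121292621-121292770, + strand: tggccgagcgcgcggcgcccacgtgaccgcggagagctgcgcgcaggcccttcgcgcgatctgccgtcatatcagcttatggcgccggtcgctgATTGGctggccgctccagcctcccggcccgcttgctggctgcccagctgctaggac
DHCR7, chr11:71448436-71448585, - strand: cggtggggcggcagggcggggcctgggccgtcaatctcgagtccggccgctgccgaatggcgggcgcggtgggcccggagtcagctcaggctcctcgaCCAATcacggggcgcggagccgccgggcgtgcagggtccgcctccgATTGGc
STARD4, chr5:111512591-111512740, - strand: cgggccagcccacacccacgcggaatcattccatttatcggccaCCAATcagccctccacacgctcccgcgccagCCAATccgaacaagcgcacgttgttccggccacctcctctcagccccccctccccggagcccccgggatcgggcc
Over their whole windows, of which the stretches are a part, NSDHL and MSMO1 held 5 and 4 CCAAT boxes, EBP 3, DHCR7 and STARD4 2 each, and SREBF2 and SC5D 1 each. The 5 of NSDHL include matches at -113 and -110 that overlap as CCAATTGG, the same letters read on both strands. IDI1 and FADS1, which also rose in both lines and are not shown, held 0 each, and SQLE had no window. Of the 12 matched genes that rose with MAFG in SKMel28 cells, 10 held a CCAAT box (83.3%), against 9 of the 16 that did not rise (56.2%), while in WM164 cells the counts were 6 of 9 (66.7%) and 13 of 19 (68.4%). Over all tested coding genes the shares were 39.8% of those that rose and 36.6% of the rest in SKMel28, and 34.5% and 37.3% in WM164 cells.

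With MAFG, 6 of the 17 sterol enzymes were higher in WM164 cells, 11 in SKMel28 cells and 0 in A375 cells, and none of the 17 was called lower. Each line was tested on its own 6 libraries with edgeR's quasi-likelihood test, and a gene was called at a Benjamini-Hochberg adjusted p of 0.05 or less over all genes tested. The 31 genes were chosen with earlier results of these data known. Their shares, here and below, describe the list and do not test it against all genes. In WM164 cells, 11 of the 31 genes were higher with MAFG (35.5%, against 16.2% of all 15919 genes tested) and 3 were lower (9.68% against 15.6%). In SKMel28 cells, 13 were higher (41.9%, against 14.6% of 15523) and 3 lower (9.68% against 15.3%). In A375 cells, 0 of the 31 were called by edgeR, where 0.780% of 15779 genes were higher and 0.0634% lower, 1 gene had an unadjusted p under 0.05, and DESeq2 also called 0. Without A375 MAFG replicate 1 the calls over all genes went from 133 to 393, while 0 of the 31 were called. The changes were small, since only EBP in SKMel28 cells passed a fold change of 2, a limit that 4.74% of all genes passed there and 6.94% in WM164 cells. The median log2 fold change of the 31 genes was 0.17 in WM164 (all genes -0.0015), 0.082 in SKMel28 (all genes -0.0080) and -0.041 in A375 cells (all genes -0.00037), with single genes from -0.38 to 0.62, from -0.71 to 1.11 and from -0.33 to 0.70. All MAFG libraries lay on one side of all GFP libraries for 17 of the 31 genes in WM164 (54.8%, against 43.4% of all genes), 15 in SKMel28 (48.4% against 43.0%) and 3 in A375 cells (9.68% against 12.8%).

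**Figure D2:**
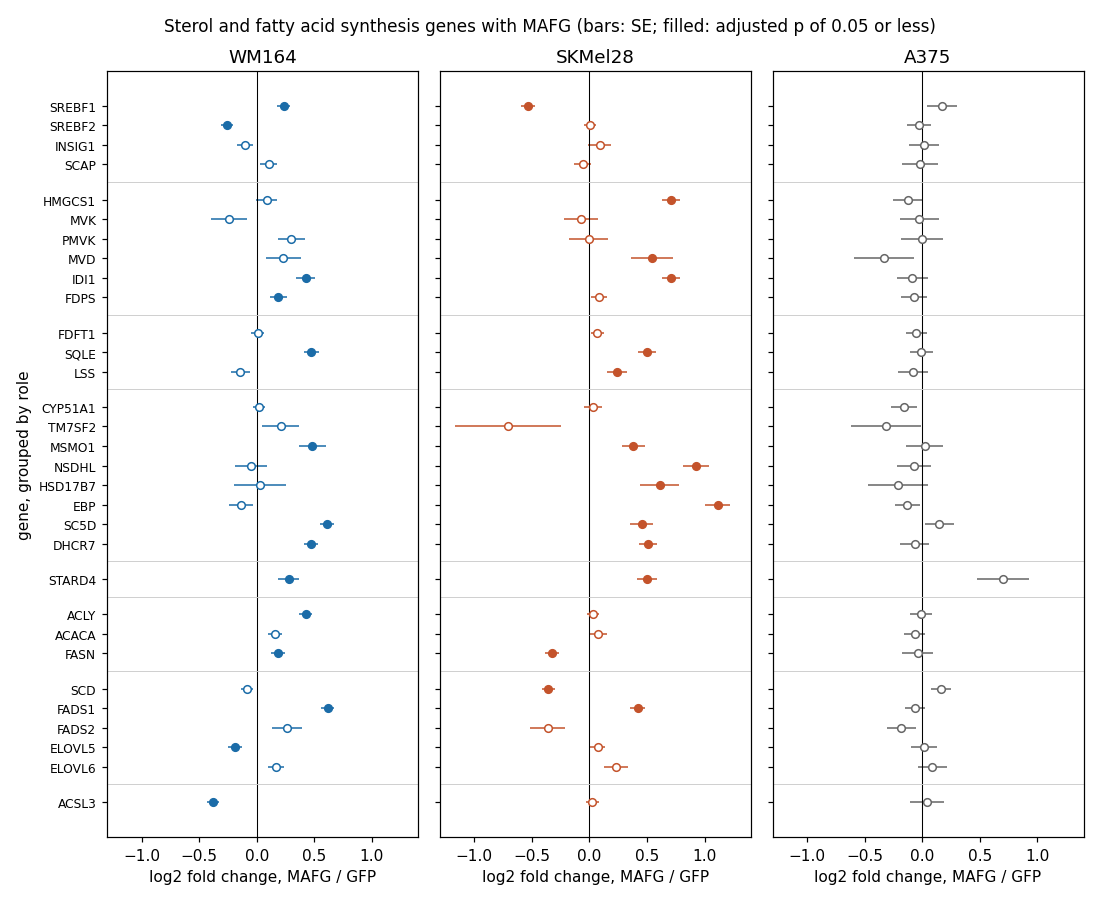
log2 fold change with MAFG against GFP (x axis) of the 31 genes, grouped by role (y axis), in WM164, SKMel28 and A375 cells; bars are standard errors and filled points have an adjusted p of 0.05 or less. Filled points lie to the right of 0 for 11 genes in WM164 and 13 in SKMel28, and none is filled in A375.

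These splits depend on the scale. On log2(TPM + 1), where the median log2 fold change of all genes was 0.14 (WM164), -0.14 (SKMel28) and -0.10 (A375), limma called 11 of the 31 genes higher and 0 lower in WM164 cells, and 4 higher and 3 lower of the 30 that passed its filter in SKMel28 cells, which left out TM7SF2. The whole table shifted with them, from 2580 higher and 2485 lower to 1558 and 360 in WM164, and from 2265 and 2375 to 470 and 2105 in SKMel28 cells. The median of the sterol enzymes (17 in WM164, 16 in SKMel28) lay above that of all genes on this scale too, at 0.31 against 0.14 in WM164 and 0.24 against -0.14 in SKMel28 cells. When all 18 libraries shared 1 edgeR model, 7 of the 31 genes were higher in WM164 and 9 in SKMel28 cells. Of all 18767 genes in that model, 1653 and 1450 were higher.

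Among the regulators, SREBF1 moved in opposite directions in WM164 and SKMel28 cells. SREBF1 lies at chr17:17810399-17837002 (GRCh38, minus strand, GENCODE 44), and shares exon positions with RAI1 on the other strand. In WM164 cells, SREBF1 was at 374, 364 and 353 CPM with MAFG and at 332, 302 and 294 CPM with GFP. Every MAFG library lay above every GFP library, a log2 fold change of 0.23 (SE 0.056, edgeR adjusted p = 0.00359), which was not called when all 18 libraries shared 1 edgeR model (adjusted p = 0.133). In SKMel28 cells, it was at 66.0, 72.1 and 67.0 CPM with MAFG and at 99.6, 99.6 and 98.3 CPM with GFP. Here every MAFG library lay below every GFP library, with a log2 fold change of -0.54 (SE 0.059, edgeR adjusted p = 5.16e-06). In A375 cells, it was at 261, 199 and 197 CPM with MAFG and at 181, 185 and 216 CPM with GFP, and the groups overlapped (log2 fold change 0.17, SE 0.13, edgeR adjusted p = 0.997). The response differed by 0.77 on the log2 scale between WM164 and SKMel28 (SE 0.14, edgeR adjusted p = 0.000929) and by -0.72 between SKMel28 and A375 cells (SE 0.14, edgeR adjusted p = 0.00259).

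SREBF2, the main sterol regulator (chr22:41833105-41907306, plus strand), fell in WM164 cells alone among the tests of the 3 lines. It was at 275, 283 and 268 CPM with MAFG and at 331, 341 and 317 CPM with GFP in WM164 cells. The MAFG libraries lay below the GFP libraries without overlap, with a log2 fold change of -0.26 (SE 0.052, edgeR adjusted p = 0.00084). On log2(TPM + 1) this became -0.074 (limma adjusted p = 0.73). In SKMel28 cells, SREBF2 was at 184, 184 and 171 CPM with MAFG and at 180, 174 and 184 CPM with GFP, and in A375 cells at 174, 151 and 144 against 158, 154 and 168 CPM. Both pairs of groups overlapped, with log2 fold changes of 0.0044 (SE 0.056) and -0.032 (SE 0.10). With the median within 10 Mb removed, SREBF2 was called higher in SKMel28 cells (0.16, edgeR adjusted p = 0.0446). The difference of the response between WM164 and the other lines did not pass the threshold.

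INSIG1, which retains the regulators in the endoplasmic reticulum and is itself a target of theirs, was not called in any line. It was at 50.5, 49.6 and 56.8 CPM with MAFG and at 53.5, 55.4 and 59.3 CPM with GFP in WM164 cells (log2 fold change -0.099, SE 0.071). In SKMel28 cells it was at 24.5, 20.2 and 19.3 against 21.0, 18.7 and 20.5 CPM (0.089, SE 0.10). In A375 cells it was at 49.2, 40.8 and 47.0 against 47.1, 50 and 38.7 CPM (0.015, SE 0.13). The groups overlapped in all 3 lines. SCAP, the escort, was at 37.4, 37.4 and 35.6 against 33.2, 37.0 and 32.4 CPM in WM164 cells (0.10, SE 0.075). It was at 38.5, 36.4 and 33.9 against 38.6, 36.2 and 38.5 CPM in SKMel28 cells (-0.060, SE 0.074) and at 89.4, 58.9 and 66.7 against 67.0, 70.4 and 81.0 CPM in A375 cells (-0.022, SE 0.16). Here too the groups overlapped in all 3 lines, and neither gene was called.

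Of the 17 sterol enzymes, 11 rose and 0 fell in SKMel28 cells, where 14.6% of all genes rose and 15.3% fell. Their median log2 fold change was 0.45, against -0.0080 for all genes. The steps after lanosterol carried most of this, with 6 of 8 higher and a median of 0.48. On log2(TPM + 1), limma called 4 of 16 sterol enzymes higher and 0 lower, and 470 of all 12562 genes higher and 2105 lower. EBP, the isomerase that shifts an unsaturated bond in the sterol ring (chrX:48521799-48528716, plus strand), was at 29.6, 25 and 22.6 CPM with MAFG and at 11.7, 12.1 and 11.9 CPM with GFP. Every MAFG library exceeded every GFP library, with a log2 fold change of 1.11 (SE 0.11, edgeR adjusted p = 1.25e-06), the largest among the 31 genes in any of the 3 lines. NSDHL, which takes part in removing the methyl groups of early sterols (chrX:152830967-152869729, plus strand), was at 17.1, 16.6 and 18.6 CPM with MAFG and at 9.49, 8.0 and 9.93 CPM with GFP. These groups stood apart as well, a log2 fold change of 0.92 (SE 0.12, edgeR adjusted p = 1.79e-05). In WM164 cells neither gene was called, with EBP at 12.0 ± 1.17 against 13.2 ± 0.336 CPM and NSDHL at 10.7 ± 2.44 against 11.1 ± 0.0746 CPM. HSD17B7, which works in the same removal of methyl groups, rose by 0.61 (SE 0.17, edgeR adjusted p = 0.0128) in SKMel28 cells and lost the call without GFP replicate 3 or MAFG replicate 1 (edgeR adjusted p = 0.0531 to 0.057).

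The entry of the branch rose too in SKMel28 cells. HMGCS1 (chr5:43287470-43313512, minus strand) was at 46.5, 47.3 and 47.3 CPM with MAFG and at 31.3, 29.9 and 25.3 CPM with GFP. The MAFG libraries lay closely together and well above the GFP libraries, with a log2 fold change of 0.71 (SE 0.082, edgeR adjusted p = 8.46e-06), while on log2(TPM + 1) the value was 0.39 (limma adjusted p = 0.0769). IDI1, which isomerizes isopentenyl diphosphate (chr10:1039152-1049119, minus strand), was at 91.1, 92.0 and 76.3 CPM with MAFG and at 53.0, 48.3 and 57.1 CPM with GFP. The groups did not overlap, and the log2 fold change was 0.71 (SE 0.080, edgeR adjusted p = 6.96e-06). MVD, the decarboxylase before it, rose by 0.54 (SE 0.18, edgeR adjusted p = 0.0329). Its libraries overlapped, and the call was lost without any of 4 libraries (GFP replicates 1 and 3, MAFG replicates 1 and 2), at adjusted p of 0.0872 to 0.19. The kinases MVK and PMVK, which phosphorylate mevalonate, had log2 fold changes of -0.074 (SE 0.15) and -0.0070 (SE 0.17), and FDPS, which makes farnesyl diphosphate, had 0.082 (SE 0.071).

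SQLE, the squalene epoxidase and a rate-controlling enzyme of the branch, rose by 0.50 in SKMel28 cells (67.7 ± 7.69 against 47.9 ± 2.37 CPM, SE of the log2 value 0.079, edgeR adjusted p = 0.000177). DHCR7 rose by 0.51 (36.0 ± 1.92 against 25.3 ± 1.07 CPM), SC5D, a sterol desaturase, by 0.45 (34.2 ± 4.80 against 24.8 ± 1.86 CPM) and MSMO1, a methylsterol oxidase, by 0.38 (26.0 ± 2.58 against 20 ± 1.82 CPM), at edgeR adjusted p of 0.000135, 0.0025 and 0.0081. On log2(TPM + 1) these 3 calls were lost, with DHCR7 at 0.31 (limma adjusted p = 0.1), SC5D at 0.072 (0.694) and MSMO1 at 0.18 (0.296). MSMO1 lost its call without MAFG replicate 2 (edgeR adjusted p = 0.0518). LSS, which closes the ring to lanosterol, was at the threshold itself (log2 fold change 0.24, SE 0.088, edgeR adjusted p = 0.05) and passed with neither DESeq2 (adjusted p = 0.0636) nor without GFP replicate 1 or 3 or MAFG replicate 1 or 2 (0.16 to 0.23, edgeR adjusted p = 0.123 to 0.256). CYP51A1, which removes the first methyl group from lanosterol, was at 228 ± 21.4 against 223 ± 21.4 CPM, and FDFT1 at 122 ± 4.18 against 116 ± 6.84 CPM, and neither was called. TM7SF2 had as few as 10 counts in a MAFG library and 26 in a GFP library, and its log2 fold change of -0.71 carried an SE of 0.46.

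In WM164 cells, 6 of the 17 sterol enzymes rose and 0 fell, where 16.2% of all genes rose and 15.6% fell. Their median log2 fold change of 0.19 became 0.049 with the median of each chromosome removed and 0.069 with the median within 10 Mb removed. SC5D (chr11:121292681-121313410, plus strand) was at 78.3, 79.3 and 75.5 CPM with MAFG and at 48.9, 54.7 and 49.0 CPM with GFP. The groups were far apart, with a log2 fold change of 0.61 (SE 0.064, edgeR adjusted p = 8.22e-07). SQLE (chr8:124998497-125022283, plus strand) was at 81.8, 81.6 and 84.9 CPM with MAFG and at 63.4, 56.6 and 58.7 CPM with GFP. All its MAFG libraries were higher, by 0.48 on the log2 scale (SE 0.062, edgeR adjusted p = 1.01e-05). DHCR7 (chr11:71428193-71452868, minus strand) was at 149, 151 and 131 CPM with MAFG and at 109, 102 and 100 CPM with GFP. Its groups did not overlap either, with a log2 fold change of 0.47 (SE 0.063, edgeR adjusted p = 1.38e-05). MSMO1 rose by 0.48 (13.2 ± 0.453 against 9.43 ± 1.39 CPM, edgeR adjusted p = 0.00394) and IDI1 by 0.43 (40.7 ± 1.22 against 30.4 ± 3.26 CPM, edgeR adjusted p = 0.000583). FDPS was near the threshold, at 0.19 (SE 0.071, edgeR adjusted p = 0.0498), was not called by DESeq2 (adjusted p = 0.0749) and was lost when any library but MAFG replicate 3 was left out (0.11 to 0.22, edgeR adjusted p = 0.0605 to 0.304).

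STARD4, a soluble carrier that moves cholesterol between membranes, was called in SKMel28 and WM164 cells. It rose by 0.50 in SKMel28 cells (25.8 ± 0.890 against 18.3 ± 1.29 CPM, SE 0.088, edgeR adjusted p = 0.000463) and by 0.28 in WM164 cells (23.4 ± 0.422 against 19.3 ± 2.22 CPM, SE 0.092, edgeR adjusted p = 0.0282). The WM164 call was lost without any library but GFP replicate 3 (edgeR adjusted p = 0.0523 to 0.129) and with DESeq2 (adjusted p = 0.0621), and on log2(TPM + 1) STARD4 was called in neither WM164 (0.28, limma adjusted p = 0.28) nor SKMel28 cells (0.14, limma adjusted p = 0.513). In A375 cells, STARD4 was at 8.01, 11.5 and 8.57 CPM with MAFG and at 7.11, 5.84 and 4.32 CPM with GFP. No library of the groups overlapped, but the log2 fold change of 0.70 had an SE of 0.23 and an adjusted p of 0.422 in the edgeR fit of that line, against 0.0125 when all 18 libraries shared 1 model. It is named here because it was the 1 member with an unadjusted p under 0.05 in A375 cells. The remaining 30 genes in A375 cells had log2 fold changes between -0.33 and 0.17, with standard errors of 0.085 to 0.31, and the median standard error of the 31 genes was 0.13 there, against 0.071 in WM164 and 0.080 in SKMel28 cells.

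**Figure D3:**
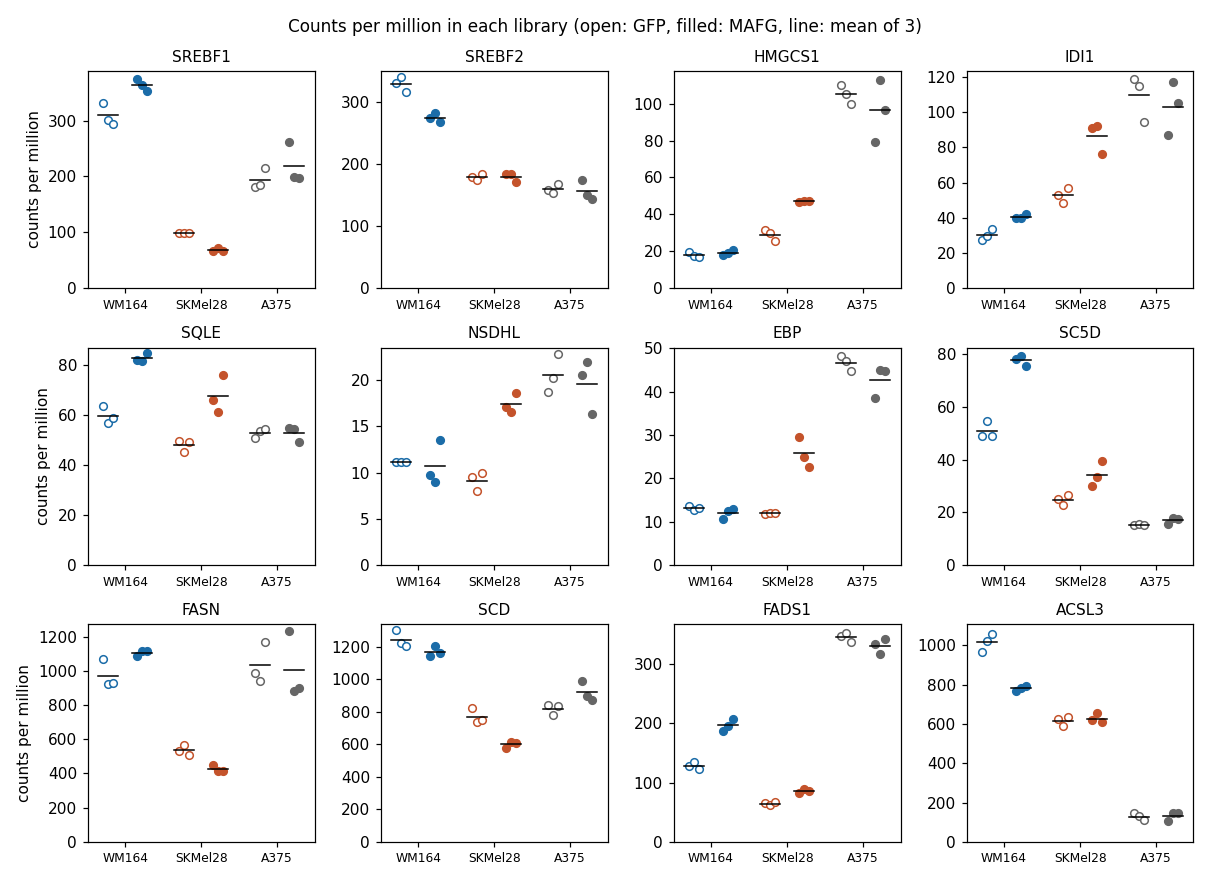
CPM of 12 of the genes in every library (y axis, from 0), with GFP libraries as open and MAFG libraries as filled points and the mean of 3 as a line, for WM164 (blue), SKMel28 (red) and A375 (grey). EBP, NSDHL and HMGCS1 separate MAFG from GFP in SKMel28 only, SQLE and FADS1 in both WM164 and SKMel28, SC5D in all 3 lines (not called in A375), and SREBF1 in opposite directions in WM164 and SKMel28.

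The fatty acid enzymes gave calls in both directions. Of the 9, 3 rose and 2 fell in WM164 cells (median log2 fold change 0.17), 1 rose and 2 fell in SKMel28 cells (median 0.029), and 0 were called in A375 cells (median -0.012). Over all genes, 16.2% rose and 15.6% fell in WM164 cells, and 14.6% rose and 15.3% fell in SKMel28 cells. FADS1, the desaturase that makes arachidonic and eicosapentaenoic acid (chr11:61799627-61829318, minus strand), was at 187, 195 and 207 CPM with MAFG and at 128, 134 and 123 CPM with GFP in WM164 cells. The groups stood well apart, with a log2 fold change of 0.62 (SE 0.057, edgeR adjusted p = 1.59e-07), the smallest adjusted p of the 31 genes in that line. In SKMel28 cells it was at 82.0, 89.3 and 86.1 against 64.9, 61.4 and 66.3 CPM. There too all MAFG libraries were higher, by 0.42 (SE 0.061, edgeR adjusted p = 8.63e-05), with 0.28 on log2(TPM + 1) (limma adjusted p = 0.238). FADS2, which overlaps FADS1 on the opposite strand and FEN1 on its own, had log2 fold changes of 0.26 in WM164 (SE 0.13), -0.36 in SKMel28 (SE 0.15) and -0.18 in A375 cells (SE 0.13), none of them called.

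ACLY, which makes cytosolic acetyl-CoA from citrate (chr17:41866917-41930542, minus strand), was at 136, 139 and 137 CPM with MAFG and at 105, 104 and 97.4 CPM with GFP in WM164 cells. The MAFG libraries differed little among themselves and were all higher, with a log2 fold change of 0.42 (SE 0.055, edgeR adjusted p = 9.11e-06). In SKMel28 cells the change was 0.029 (SE 0.054) and in A375 cells -0.012 (SE 0.093). FASN (chr17:82078338-82098294, minus strand) took opposite directions in the tests of WM164 and SKMel28 cells. In SKMel28 cells it was at 450, 416 and 415 CPM with MAFG and at 533, 564 and 510 CPM with GFP. The MAFG libraries were all lower, with a log2 fold change of -0.33 (SE 0.059, edgeR adjusted p = 0.000548), which missed the threshold when all 18 libraries shared 1 edgeR model (adjusted p = 0.0521). In WM164 cells FASN rose by 0.19 (1107 ± 16.1 against 973 ± 81.4 CPM, SE 0.059, edgeR adjusted p = 0.0223), a call that was lost without any library but GFP replicate 1 (edgeR adjusted p = 0.051 to 0.121) and in the model of all 18 libraries (edgeR adjusted p = 0.319). ACACA, which makes malonyl-CoA for FASN, had log2 fold changes of 0.16 (SE 0.060), 0.078 (SE 0.076) and -0.067 (SE 0.093) in WM164, SKMel28 and A375 cells and was not called.

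SCD, which makes monounsaturated fatty acids (chr10:100347233-100364826, plus strand), was at 579, 614 and 609 CPM with MAFG and at 822, 740 and 747 CPM with GFP in SKMel28 cells. All MAFG libraries were lower, with a log2 fold change of -0.36 (SE 0.059, edgeR adjusted p = 0.000252), while WM164 and A375 cells had -0.088 (SE 0.052) and 0.17 (SE 0.087). ACSL3 (chr2:222860942-222944639, plus strand) was at 767, 784 and 795 CPM with MAFG and at 965, 1021 and 1059 CPM with GFP in WM164 cells. It was lower in every MAFG library, a log2 fold change of -0.38 (SE 0.052, edgeR adjusted p = 2.06e-05), but on log2(TPM + 1) the value was -0.015 (limma adjusted p = 0.954). ELOVL5, an elongase of polyunsaturated fatty acids (chr6:53267398-53349179, minus strand), was at 76.9, 77.7 and 83.7 CPM with MAFG and at 94.0, 85.9 and 91.3 CPM with GFP in WM164 cells. Its groups were apart by a small margin, with a log2 fold change of -0.19 (SE 0.060, edgeR adjusted p = 0.0257) that was lost without GFP replicate 1 or 3 or MAFG replicate 1 or 2 (edgeR adjusted p = 0.069 to 0.118). ELOVL6, which elongates palmitate, was not called in any line, at 0.17 (SE 0.068), 0.23 (SE 0.10) and 0.087 (SE 0.13).

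WM164 and SKMel28 shared 7 genes that rose in both: IDI1, SQLE, MSMO1, SC5D, DHCR7, STARD4 and FADS1. These are 22.6% of the 31 genes, against 3.66% of the 14357 genes tested in both lines, and make up 63.6% of those that rose in WM164 and 53.8% of those that rose in SKMel28 cells. On log2(TPM + 1), where limma lost MSMO1, SC5D, DHCR7, STARD4 and FADS1 in SKMel28 cells, IDI1 and SQLE were left. The edgeR model of all 18 libraries lost MSMO1 in SKMel28 (adjusted p = 0.0665) and STARD4 in WM164 cells (adjusted p = 0.232). SREBF1 and FASN rose in WM164 and fell in SKMel28 cells, and 0 of the 31 genes fell in both, where 4.94% of all genes did. The difference of the 2 responses, tested in the model of all 18 libraries, passed the threshold for 7 genes (22.6%, against 13.7% of all genes). EBP had the largest difference among the called genes, -1.25 on the log2 scale (WM164 minus SKMel28, SE 0.15, edgeR adjusted p = 6.01e-06), followed by NSDHL (-0.97, SE 0.21, edgeR adjusted p = 0.00363) and SREBF1 (0.77). HMGCS1 also responded more in SKMel28 (-0.62, but -0.13 with a limma adjusted p of 0.788 on log2(TPM + 1)), and ACLY (0.40), FASN (0.52) and FADS2 (0.63) more in WM164 cells. The FASN difference was lost without any of 9 of the 12 libraries of these lines (edgeR adjusted p = 0.0591 to 0.0896), as was that of FADS2 without 9 of them (0.0631 to 0.113).

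**Figure D4:**
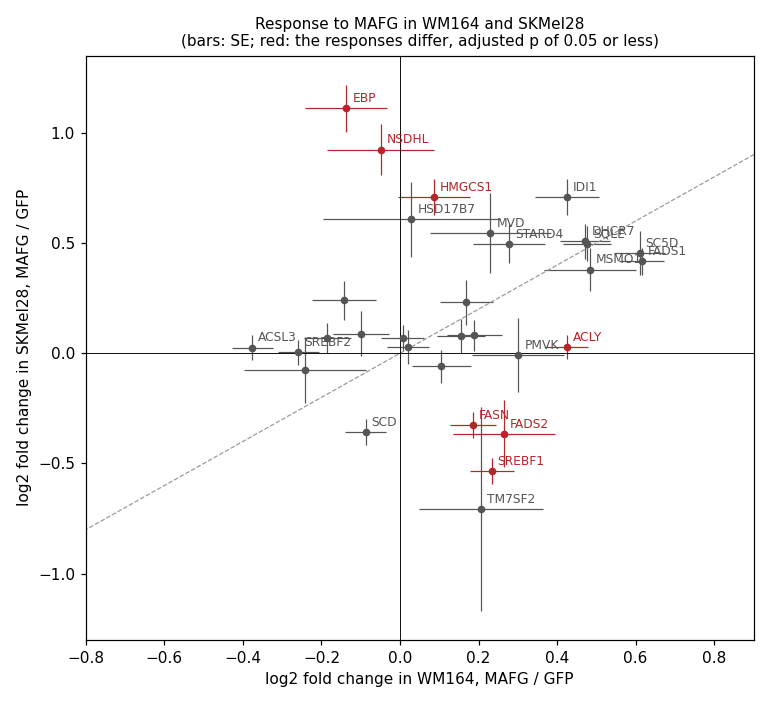
log2 fold change with MAFG in WM164 (x axis) against that in SKMel28 cells (y axis) for each of the 31 genes, with standard errors as bars; the dashed line marks equal responses, and red marks the 7 genes whose responses differ at an adjusted p of 0.05 or less. IDI1, SQLE, MSMO1, SC5D, DHCR7, STARD4 and FADS1 lie in the upper right part, EBP, NSDHL and HMGCS1 near 0 on the x axis and high on the y axis, and SREBF1 and FASN in the lower right part.

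Against A375, the response of 6 genes was larger in WM164 (19.4%, against 9.21% of all genes called in either direction) and that of 9 genes differed in SKMel28 cells (29.0% against 9.51%). In WM164 these were FADS1 (0.67, SE 0.093, edgeR adjusted p = 4.39e-05), ACLY (0.43), SQLE (0.48), DHCR7 (0.53), SC5D (0.46) and IDI1 (0.51). In SKMel28, EBP (1.24, SE 0.14, edgeR adjusted p = 5.76e-06), HMGCS1 (0.83, SE 0.15, edgeR adjusted p = 0.000801), IDI1 (0.79), NSDHL (0.99), SQLE (0.50), DHCR7 (0.56) and FADS1 (0.47) responded more than in A375 cells, and SREBF1 and SCD (-0.53, SE 0.10, edgeR adjusted p = 0.00162) more negatively. The IDI1 and SC5D differences between WM164 and A375 were lost without 9 and 8 of the 12 libraries (edgeR adjusted p = 0.0514 to 0.127 and 0.052 to 0.0884), and that of DHCR7 without WM164 MAFG replicate 2 (edgeR adjusted p = 0.0525), without which 3 of the 31 genes were called in that comparison. On log2(TPM + 1), 5 of the differences between SKMel28 and A375 were lost, those of HMGCS1, IDI1, SQLE, DHCR7 and FADS1 (limma adjusted p = 0.16, 0.204, 0.133, 0.261 and 0.456). The comparisons with A375 share its libraries, so that one does not add independent evidence to the other.

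Whole chromosomes moved with MAFG in WM164 and SKMel28 cells, and some of the 31 genes lie on them. In SKMel28 cells, 46.1% of the 518 tested genes of chromosome X were higher and 4.83% lower, with a median log2 fold change of 0.35, and EBP and NSDHL are both on X. In WM164 cells, 34.0% of the 843 tested genes of chromosome 11 were higher and 9.02% lower, with a median of 0.19, and SC5D, DHCR7, FADS1, FADS2 and TM7SF2 are on chromosome 11. In A375 cells the medians of these chromosomes were 0.014 and 0.012. With the median of each chromosome taken out as an offset, EBP remained at 0.76 (edgeR adjusted p = 6.48e-05) and NSDHL at 0.57 (edgeR adjusted p = 0.00157) in SKMel28 cells, and SC5D at 0.42, FADS1 at 0.43 and DHCR7 at 0.28 in WM164 cells (edgeR adjusted p = 6.05e-05, 1.35e-05 and 0.00204). ELOVL5, on chromosome 6 with a median of -0.12 in WM164 cells, went to -0.068 (edgeR adjusted p = 0.443), and STARD4 in WM164 (0.22, edgeR adjusted p = 0.0767) and LSS in SKMel28 cells (0.19, edgeR adjusted p = 0.12) also lost their calls. With the offset, 12 of the 31 genes were higher and 2 lower in WM164 cells and 13 higher and 3 lower in SKMel28 cells. Of all genes, 2403 were then higher and 2342 lower of 15919 in WM164, and 2073 and 2033 of 15523 in SKMel28 cells. The median of the 17 sterol enzymes was 0.049 in WM164 and 0.44 in SKMel28 cells. With the median of the neighbours within 10 Mb as the offset, EBP was at 0.80 and NSDHL at 0.69, while FDPS in WM164 (0.084, edgeR adjusted p = 0.421) and MSMO1 in SKMel28 cells (0.25, edgeR adjusted p = 0.081) lost their calls. The part of these chromosome-wide shifts in the results was not tested beyond these offsets, which were added after the data had been seen.

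**Figure D5:**
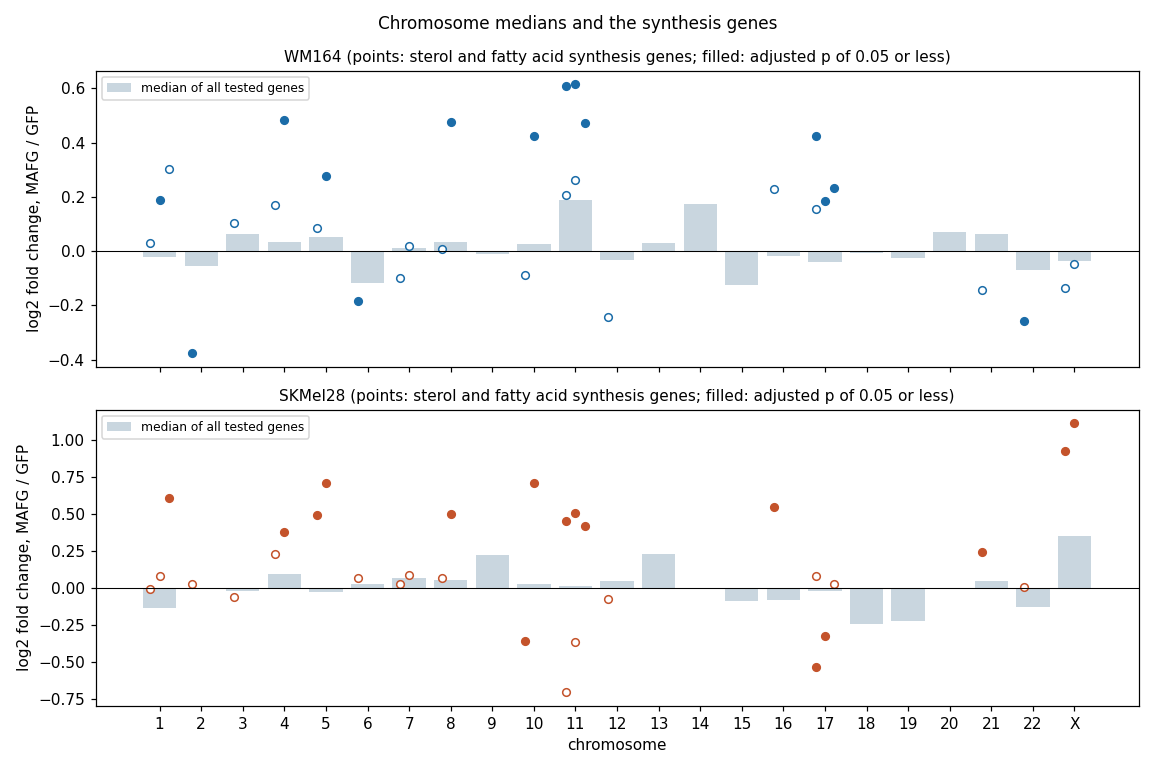
Median log2 fold change with MAFG of all tested genes of each chromosome (bars) and the log2 fold change of each of the 31 genes on its chromosome (points, filled at an adjusted p of 0.05 or less), in WM164 and SKMel28 cells. Chromosome 11 in WM164 (0.19) and chromosome X in SKMel28 (0.35) have the highest medians, and the genes EBP and NSDHL stand above that of X.

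Genes around the pathways gave mixed results, to be read against the 16.2% of all genes called higher and 15.6% lower in WM164 cells and the 14.6% and 15.3% in SKMel28 cells. Of 8 genes that process the regulators, 0 were called in WM164 cells, and in SKMel28 cells 2 rose, among them ERLIN1 (0.31, edgeR adjusted p = 0.0066), and 1 fell. Among genes of liver X receptors and sterol export, NR1H3, which encodes such a receptor, rose by 1.4 (34.2 ± 3.97 against 12.9 ± 0.971 CPM, edgeR adjusted p = 3.78e-09) and its target ABCA1, the cholesterol exporter, by 2.48 (2.99 ± 0.392 against 0.535 ± 0.0880 CPM, edgeR adjusted p = 7.61e-06) in WM164 cells. These were 2 of 6 tested genes, with 0 lower. In SKMel28 cells 0 of 5 rose and 2 fell, NR1H2 (-0.62) and SMPDL3A (-0.39). Of 9 genes of sterol uptake, trafficking and storage, 2 rose and 1 fell in WM164 and 1 rose and 4 fell in SKMel28 cells, where NPC1, which exports cholesterol from lysosomes, fell by 0.57 (edgeR adjusted p = 3.7e-06). The lipoprotein receptor gene LRP8 rose by 0.52 in WM164 and fell by 0.33 in SKMel28 cells, and SCARB1 fell by 0.45 in WM164 cells.

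Of 9 genes of the isoprenoid branch, which uses intermediates of the same route, 1 rose in WM164 and 3 rose and 1 fell in SKMel28 cells. FNTB, a farnesyltransferase subunit, rose in both, by 0.45 and 0.40. For acetyl-CoA and NADPH supply, 2 of 7 tested genes rose and 3 fell in WM164 (ACSS2 0.56, PGD -0.35), and 1 rose and 2 fell in SKMel28 cells (ACAT2 0.50, ME1 -0.58). Of 14 tested genes for other elongation, desaturation and activation of fatty acids, 4 rose and 5 fell in WM164 (FADS3 0.99, ELOVL2 -0.57) and 3 rose and 6 fell in SKMel28 cells (ACSL1 -0.87, SCD5 -0.75). Of 8 genes of fatty acid oxidation, 1 rose and 2 fell in WM164, where CPT1A, the gate of mitochondrial oxidation, rose by 0.85 (edgeR adjusted p = 0.000119), and 0 rose and 5 fell in SKMel28 cells, with HADHA at -0.77 and HADHB at -0.49 (edgeR adjusted p = 5e-08 and 2.98e-05). In A375 cells 0 genes of these 7 lists were called by edgeR.

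Some members share sequence positions with other genes. The labels name a library kit without strand and the methods a strand-specific one, and the use of strand in counting is not stated, so FADS1 with FADS2, SREBF1 with RAI1, MVK with MMAB and CYP51A1 with AKAP9 could not be told apart where their exons overlap on opposite strands. Among coding genes on the same strand, TM7SF2 overlaps VPS51, FADS2 overlaps FEN1, EBP overlaps an unnamed gene model and CYP51A1 overlaps 2 of them. In bulk RNA, fewer cells of a kind and less RNA per cell cannot be told apart.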

How the data were processed

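RNA-seq was measured in 18 libraries of 3 melanoma lines with MAFG or GFP, grouped by their labels. Per the methods and the submitters' processing notes, the authors trimmed reads with cutadapt 1.8.1, aligned them to GRCh38 with STAR 2.7.7a and deposited whole-number counts of uniquely aligned reads per gene. The authors also deposited TPM values, scaled to the same sum in every library. The notes name RSEM 1.3.0, and the tool behind these TPM values is not given in the sources used here, nor is the annotation release or the use of strand in counting. All sample columns of both tables were used.

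Each line was tested with edgeR 4.0.16 (R 4.3.3) on the counts as deposited, with TMM normalization, filterByExpr, quasi-likelihood tests and Benjamini-Hochberg adjustment over all genes tested, at a threshold of 0.05. Standard errors are the log2 fold change divided by the square root of F. Differences between lines were contrasts in 1 model of all 18 libraries. DESeq2 1.42.0, limma 3.58.1 on log2(TPM + 1) and log2(TPM + 0.1), other count filters, DESeq2 size factors, a replicate block, 1 model of all libraries, a fold limit of 2, leaving out each library, and 2 offsets for chromosome-wide shifts, added after the data had been seen, were the alternatives. Scripts were tested on simulated data. Gene positions are from GENCODE 44, which matched 99.5% of tested genes in each line, and promoters from RefSeq.

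Values in every library are given for the 4 regulators and, for each line and direction, for up to 5 members with the smallest adjusted p. For contrasts between lines up to 3 such members are given, and from each related list up to 2 genes a line. Other called members were added after their values were seen. The members and lists were chosen with earlier results of these data known. Depth is given in the results, and the number of libraries limits the precision. The value of 1 gene of the related lists is not reported here.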

Additional observations from a re-analysis of the deposited data

Results flagged for a closer look

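The following differences of the log2 fold change with MAFG between lines passed a test of the difference itself in the edgeR model of all 18 libraries. WM164 minus SKMel28 gave 0.77 for SREBF1, -0.62 for HMGCS1, -0.97 for NSDHL, -1.25 for EBP, 0.40 for ACLY, 0.52 for FASN and 0.63 for FADS2. WM164 minus A375 gave 0.51 for IDI1, 0.48 for SQLE, 0.46 for SC5D, 0.53 for DHCR7, 0.43 for ACLY and 0.67 for FADS1. SKMel28 minus A375 gave -0.72 for SREBF1, 0.83 for HMGCS1, 0.79 for IDI1, 0.50 for SQLE, 0.99 for NSDHL, 1.24 for EBP, 0.56 for DHCR7, -0.53 for SCD and 0.47 for FADS1. These 3 contrasts share the libraries of each line.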

How the results depend on the processing

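Among the counts of the 31 genes, limma on log2(TPM + 1), log2(TPM + 0.1) and log2(TPM + 1) without a filter gave 11, 11 and 7 higher and 0, 0 and 0 lower in WM164 cells (medians 0.31, 0.35 and 0.31), and 4, 4 and 2 higher in SKMel28 cells (medians -0.0054, -0.0063 and -0.042). Of all genes (12351, 12351 and 26722 tested), these scales gave 1558, 1502 and 1079 higher and 360, 351 and 227 lower in WM164 cells. In SKMel28 cells (12562, 12562 and 26088 tested) they gave 470, 465 and 333 higher and 2105, 2077 and 1292 lower. On the first and second of these scales, 4 and 4 responses differed between SKMel28 and A375, against 657 and 603 of all 14791 genes. A fold above 2 left 0 higher and 0 lower in WM164, 1 higher and 0 lower in SKMel28, responses of 1, 0 and 1 gene (WM164 minus SKMel28, WM164 minus A375, SKMel28 minus A375) and GFP levels of 8, 13 and 10 genes. Of all 18767 genes, 957, 823 and 788 responses and 5389, 8756 and 8215 GFP levels passed that limit. For GFP levels these are larger shares than among the 31 genes. With 1 edgeR model of all 18 libraries, 7 were higher in WM164 (of all 18767 genes, 1653) and 1 in A375 cells (438). The median in WM164 was 0.077 with the chromosome median removed and 0.069 with the median within 10 Mb removed. Leaving out each library gave 8 to 10 higher, 2 to 3 lower and a median of 0.12 to 0.18 in WM164, 10 to 13 higher, 3 to 4 lower and 0.043 to 0.13 in SKMel28, 0 to 0 called and -0.081 to 0.0068 in A375, 5 to 7, 3 to 9 and 9 to 11 responses, and 19 to 20, 25 to 27 and 26 to 27 GFP levels. Over all genes the same fits gave 2141 to 2407 higher and 1991 to 2288 lower in WM164 cells. They gave 1811 to 2035 and 1868 to 2088 in SKMel28, and 59 to 393 called in A375 cells. Of 19413 to 19539 genes, 1937 to 2179, 1312 to 2694 and 1331 to 2336 responses were called. For GFP levels these were 9838 to 9963, 12891 to 13153 and 12308 to 12623. The replicate block, a term for the library number, gave 11 higher and 3 lower in WM164, 13 and 3 in SKMel28, 0 and 0 in A375, and 5, 4 and 9 responses. Over all genes it gave 2566 and 2475, 2284 and 2392, and 62 and 2 in the same order of lines, and 1957, 1299 and 1297 responses. Whether the numbers pair the libraries is not stated. Deviations of same-numbered MAFG and GFP libraries from the mean of their own condition correlated at -0.033 to 0.012, which does not settle it. Beside the medians that changed sign here, and that of the fatty acid enzymes in SKMel28 cells (-0.11 on log2(TPM + 1)), direction turned for regulators that were not called. Most members without a call were not followed gene by gene. On the 3 TPM scales, INSIG1 became 0.027, 0.029 and 0.027 in WM164, -0.12, -0.14 and -0.12 in SKMel28 and -0.13, -0.14 and -0.13 in A375, and SREBF2 -0.22, -0.23 and -0.22 in SKMel28 cells. With the median within 10 Mb removed, SCAP became -0.014 in WM164 and 0.046 in SKMel28, and INSIG1 -0.016 in A375 cells, where it was -0.0018 with the chromosome median removed. Without each library, SREBF2 ranged from -0.017 to 0.039 in SKMel28 and from -0.12 to 0.023 in A375, INSIG1 from -0.020 to 0.16 and from -0.087 to 0.089, and SCAP from -0.21 to 0.10 in A375 cells. The causes were not tested. Depth limits TM7SF2 and HSD17B7, which had the fewest counts.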
